A study of Mus musculus with 17 samples.

Results

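Transcripts of 9 autophagy and lysosome genes were followed in the cortex of mice that carry a human Tau transgene, with and without the Chga gene. The genes were chosen by name, as widely used markers of the pathway, and all 9 (Sqstm1, Map1lc3a, Map1lc3b, Lamp1, Lamp2, Becn1, Tfeb, Ctsb and Grn) were found among the 56953 genes of the count table and had enough counts for a test. Their transcripts were measured by bulk mRNA sequencing of prefrontal cortex in 17 mice of 8 months, on the B6C3F1/J background. The WT group held 5 mice without the transgene. The hTau group held 6 mice heterozygous for the PS19 transgene, human 1N4R Tau with the P301S mutation driven by the Prnp promoter, which is active in many cell types. The CgA-KO/hTau group held 6 mice with the same transgene and a congenital deletion of Chga in the whole body, the gene of the secretory granule protein chromogranin A (CgA). No group lacked Chga without the transgene, so an effect of the deletion could be measured only on the transgenic background.

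Autophagy delivers cytoplasmic material to the lysosome for degradation. A membrane grows around the cargo, proteins of the Atg8 family, which include those of Map1lc3a and Map1lc3b, are attached to it, and receptors such as the product of Sqstm1 (p62) tie cargo to these proteins before the vesicle fuses with a lysosome, where proteases such as cathepsin B act. In neurons this route takes part in clearing aggregated proteins, Tau included, and transcripts of the pathway do not measure its flux, since LC3 and p62 are themselves degraded in it.

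The transcription factor TFEB, the product of Tfeb, is known to bind the E-box CACGTG, and its preferred sites in lysosomal genes, the CLEAR elements, are often close to a longer palindrome, the same letters with GT before and AC after them. Both forms were searched for on both strands of the RefSeq promoters of GRCm38.p6, from 250 bases before to 50 bases after each start. Promoters were matched for 6 of the 9 genes (8 windows), and Map1lc3a, Becn1 and Ctsb were not matched. Of the 8 windows, only that of Lamp1, the gene of an abundant lysosomal membrane glycoprotein, held CACGTG, and it held 4 copies, which lay 61, 45, 28 and 15 bases before the start. Of all 32851 windows, 7.15% held CACGTG at least once and 0.0244% (8 windows) held 4 or more. The 100 bases before the Lamp1 start (chr8:13159061-13159160, plus strand) are shown because they carry these 4 copies, in capitals.
Lamp1: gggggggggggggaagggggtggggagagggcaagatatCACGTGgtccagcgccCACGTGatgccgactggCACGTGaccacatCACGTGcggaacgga

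The longer palindrome was in none of the windows of the 9 genes. It was in 4 of the 161 windows (2.48%) matched to a wider list of autophagy and lysosome genes and in 0.326% of all windows, and CACGTG, which it contains, was in 22.4% of the windows of the wider list. The 4 windows are shown, 5′ to 3′ on the strand of the gene with the palindrome in capitals, for comparison with Lamp1. They belong to Cln3, the gene of a lysosomal membrane protein mutated in Batten disease (chr7:126583335-126583374, minus strand), Igf2r, the gene of the large mannose 6-phosphate receptor (chr17:12769691-12769730, minus strand), Vps16 (chr2:130424285-130424324, plus strand) and Vps33a (chr5:123573005-123573044, minus strand). Vps16 and Vps33a encode shared subunits of the tethers that bring vesicles to the endosome and lysosome.
Cln3: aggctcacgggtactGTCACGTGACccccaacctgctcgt
Igf2r: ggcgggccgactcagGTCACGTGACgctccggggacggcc
Vps16: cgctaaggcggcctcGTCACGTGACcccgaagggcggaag
Vps33a: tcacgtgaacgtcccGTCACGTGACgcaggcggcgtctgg

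Values are CPM, each count as a share of its library's total rescaled to a common size, with totals adjusted by the trimmed mean of M-values (TMM). The tests are from edgeR's quasi-likelihood model, a single fit to all 17 libraries, with the Benjamini-Hochberg false discovery rate (FDR) over all 23062 genes tested, and a gene was called at an FDR under 0.05. The FDRs below come from this edgeR test unless another test or setting is named beside them. The labels do not say more of the replicates than their numbers, and the study describes them as separate mice.

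The libraries differed in more than genotype. Total counts ran from 8838334 in WT replicate 4 to 227651681, and about 3 deposited counts stood for 1 sequenced fragment. Chga had 0 counts in each CgA-KO/hTau library, where 9 counts, the most that this allows, would be at most 0.260 CPM, whereas WT libraries held 163 ± 11.9 CPM (SD, n = 5) and hTau libraries 168 ± 6.68 CPM (SD, n = 6). Transcripts that mark the striatum, which lies beneath the cortex, were present in every WT library (score, the mean centred log2(CPM + 1) of 12 genes, 0.87 to 2.56) and low in every hTau library (-1.42 to -1.24), and all 12 were called lower in hTau. Among the CgA-KO/hTau libraries this score was 1.87 in replicate 1, -0.12 in replicate 2, 1.89 in replicate 3 and -1.32 to -1.29 in replicates 4 to 6. Replicates 1 to 3 of that group also had the highest oligodendrocyte scores (0.53 to 0.73, against -0.77 to 0.23 in the other libraries) and the highest mitochondrial shares (13.8% to 18.2% of counts, against 2.56% to 10.9%). In each genotype, replicates 1 to 3 held over 49 CPM of the Y-linked gene Ddx3y and the rest close to 0; sex is not given beside each library and was no term in the fit. Replicates 4 to 6 of hTau, and replicates 1 and 3 of CgA-KO/hTau, resembled each other more than other libraries of a genotype did, with a MAD-scaled SD of the log2 ratio of 0.0523 to 0.0607 and of 0.0980, against at least 0.146.

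Per kilobase of merged exons, the 9 genes fell into a high set, a lower set and Tfeb. In hTau, Sqstm1 (117 ± 5.79 CPM per kb, SD, n = 6), Ctsb (112 ± 9.43), Map1lc3a (106.0 ± 13.2) and Lamp1 (103 ± 3.75) led, and none of these neighbours differed by more than the larger of their SDs. Map1lc3b (12.6 ± 0.567 CPM per kb), Becn1 (11.5 ± 0.519), Grn (9.46 ± 2.51) and Lamp2 (8.997 ± 0.687) followed, where only the step from Map1lc3b to Becn1 was beyond the larger SD. Tfeb, at 0.701 ± 0.220 CPM per kb, was lowest. The same 4 genes led in WT (71.1 to 99.3 CPM per kb) and in CgA-KO/hTau (75.7 to 105 CPM per kb), with Lamp1 first in CgA-KO/hTau and Map1lc3a the lowest of the 4 in both. The merged exons of Map1lc3b (7517 bases in 3 blocks) are far longer than those of Map1lc3a (1181 bases in 4 blocks), so the distance between these paralogs depends on the length used.

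**Figure D1:**
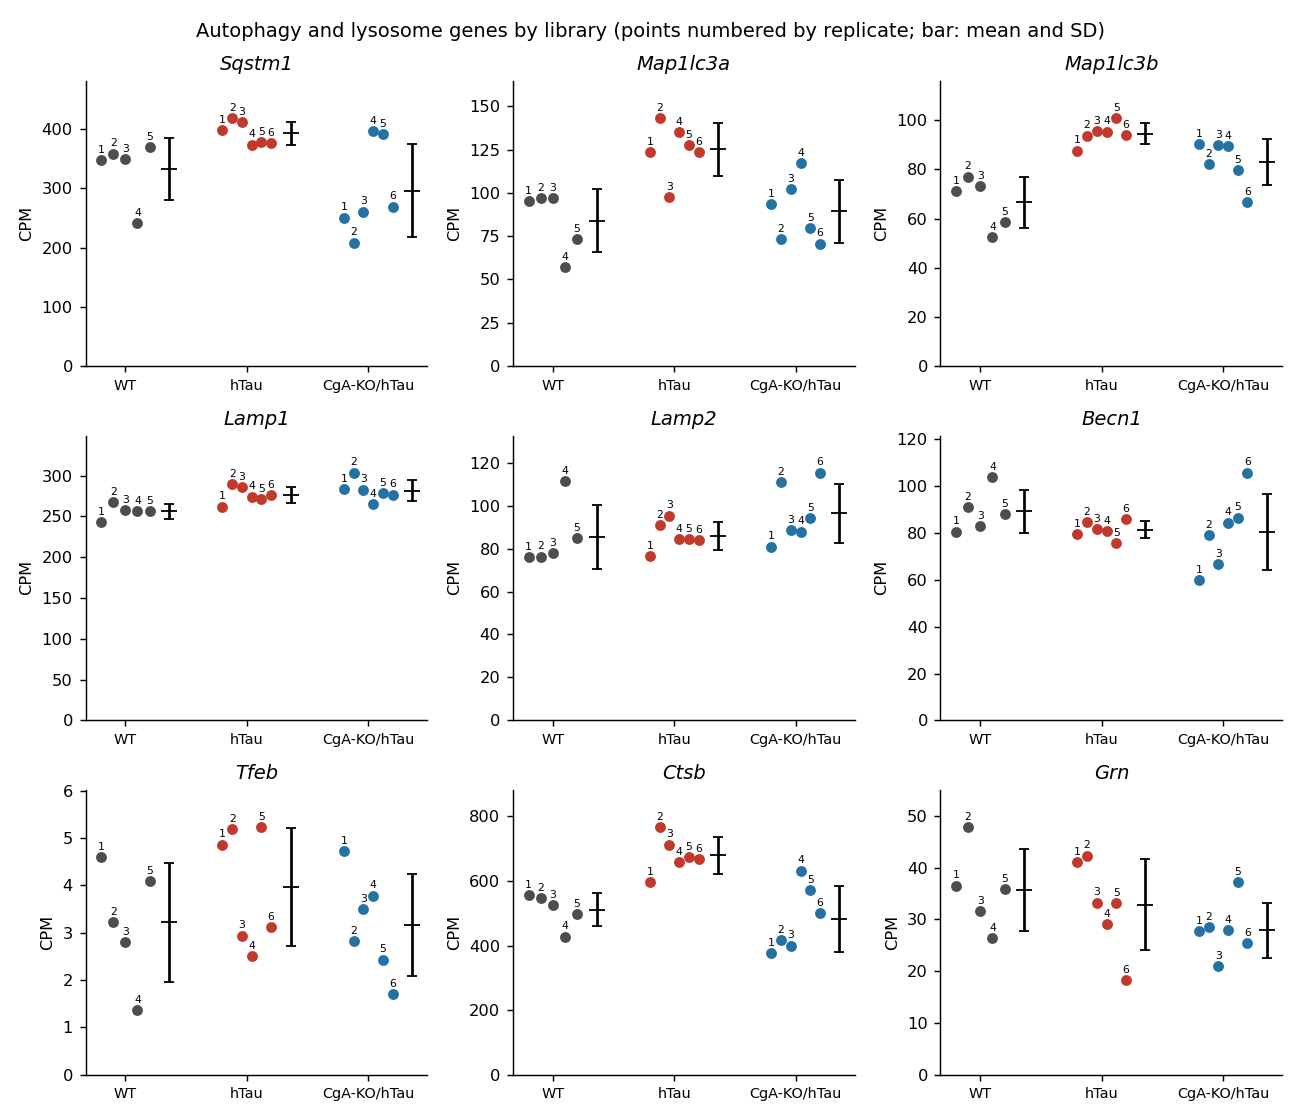
Level of each of the 9 genes in every library (vertical axis, CPM from 0; horizontal axis, genotype). Points are libraries numbered by replicate and the bar beside each group is its mean and SD. For Sqstm1, Map1lc3a, Map1lc3b and Ctsb every hTau point lies above every WT point, and for Map1lc3b the lowest hTau library is at 87.7 CPM and the highest WT library at 77.1 CPM.

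The first comparison asked how these transcripts differ between hTau and WT cortex. Both LC3 genes were higher in hTau, Map1lc3b by 1.42-fold and Map1lc3a by 1.49-fold. They were the 2 of 9 genes called, against 5.90% of all genes tested (1.95% called higher). In 4 of the 9, Sqstm1, Map1lc3a, Map1lc3b and Ctsb, every hTau library was above every WT library, which held for 5.13% of all genes in this direction. The median log2 fold change of the 9 was 0.24, against 0.01 over all genes, and none was called lower.

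Map1lc3b encodes LC3B, whose lipid-bound form is the usual marker of autophagosomes (GRCm38 chr8:121590361-121598760, plus strand). It stood at 71.3, 77.1, 73.3, 52.6 and 58.7 CPM in WT replicates 1 to 5 and at 87.7 to 101 CPM in hTau (median 94.7). The hTau libraries varied by 4.503% of their mean and did not overlap with WT, where replicates 4 and 5 were lowest. The log2 fold change was 0.50 (standard error 0.11, 95% interval 0.28 to 0.73, FDR = 0.00785). It held in 29 of 30 alternative settings, and averaging the near-identical libraries gave 0.48 with an FDR of 0.0613. With the striatum score as a covariate it was 0.67 (FDR = 0.0105).

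Map1lc3a encodes LC3A, its close paralog (chr2:155276297-155278073, plus strand). The WT replicates 1 to 5 held 95.4, 97.0, 97.1, 56.9 and 73.4 CPM. The hTau libraries ran from 97.5 to 143 CPM (median 126). The groups did not overlap, but hTau replicate 3, at 97.5 CPM, was level with WT replicates 1 to 3. The log2 fold change was 0.57 (standard error 0.16, 95% interval 0.24 to 0.91, FDR = 0.0392). The direction held in all 30 settings and the call in 19, and it was lost without WT replicate 4 (0.47, FDR = 0.0778), without WT replicate 5 (0.53, FDR = 0.118) and without any one of hTau replicates 1, 2, 4, 5 and 6 (FDR 0.0570 to 0.0867). With the striatum score as a covariate the difference was 0.72 and not called (FDR = 0.0613).

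Ctsb, the gene of the cysteine protease cathepsin B (chr14:63122462-63145923, plus strand), had the highest CPM of the 9. It was at 555, 546, 526, 428 and 498 CPM in WT replicates 1 to 5 and at 596 to 766 CPM in hTau (median 671). All hTau libraries were above all WT libraries. The difference of 0.41 on the log2 scale (standard error 0.13, 95% interval 0.14 to 0.68) missed the threshold at an FDR of 0.0731 and passed it in 8 of 30 settings, DESeq2 (FDR = 0.0214) and limma voom (FDR = 0.0103) among them. With the striatum score as a covariate the Ctsb difference was -0.0016 (FDR = 0.997). That score separated the hTau from the WT libraries completely, so in this comparison genotype and striatal share cannot be told apart for any gene. The same limit holds for every value with this covariate in hTau against WT.

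Sqstm1, the gene of the cargo receptor p62 (chr11:50199366-50210827, minus strand), was at 348, 359, 349, 241 and 369 CPM in WT replicates 1 to 5. In hTau it ran from 374 to 419 CPM (median 388). The groups did not overlap, yet WT replicate 5 came within a few CPM of the lowest hTau library. The log2 fold change of 0.24 (95% interval -0.09 to 0.56) did not pass (FDR = 0.407) in any of the 30 settings, and it was -0.037 with the striatum score as a covariate.

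The other members gave no call in hTau against WT. Lamp1 (chr8:13159161-13175338, plus strand) held 256 ± 8.96 CPM in the WT libraries (SD, n = 5) and 276 ± 10.0 CPM in those of hTau (SD, n = 6), a log2 fold change of 0.11 (95% interval -0.03 to 0.25, FDR = 0.375). It had the smallest spread of the 9 in each genotype (3.50% to 4.48% of the mean). Lamp2, the gene of a second lysosomal membrane glycoprotein, one form of which is the receptor of chaperone-mediated autophagy (chrX:38401357-38456454, minus strand), was 85.3 ± 14.96 CPM in WT and 85.9 ± 6.56 CPM in hTau (0.01, 95% interval -0.23 to 0.26, FDR = 0.972). Becn1, the gene of Beclin 1, a subunit of the kinase complex that starts the autophagosome membrane (chr11:101285952-101302286, minus strand), was 89.4 ± 9.14 CPM in WT and 81.4 ± 3.66 CPM in hTau (-0.13, 95% interval -0.38 to 0.12, FDR = 0.564). With the striatum score as a covariate its difference grew to -0.60 (FDR = 0.00690). Grn, the gene of progranulin, which is cleaved to granulins in the lysosome (chr11:102430315-102437048, plus strand), was 35.7 ± 7.93 CPM in WT and 32.9 ± 8.73 CPM in hTau (-0.12, 95% interval -0.53 to 0.28, FDR = 0.770). Tfeb (chr17:47737030-47792419, plus strand) was 3.22 ± 1.25 CPM in WT and 3.97 ± 1.25 CPM in hTau (0.27, FDR = 0.644). Its interval of -0.34 to 0.88 was the widest of the 9, and in WT replicate 4 it rested on 12 counts, or about 4 fragments.

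**Figure D2:**
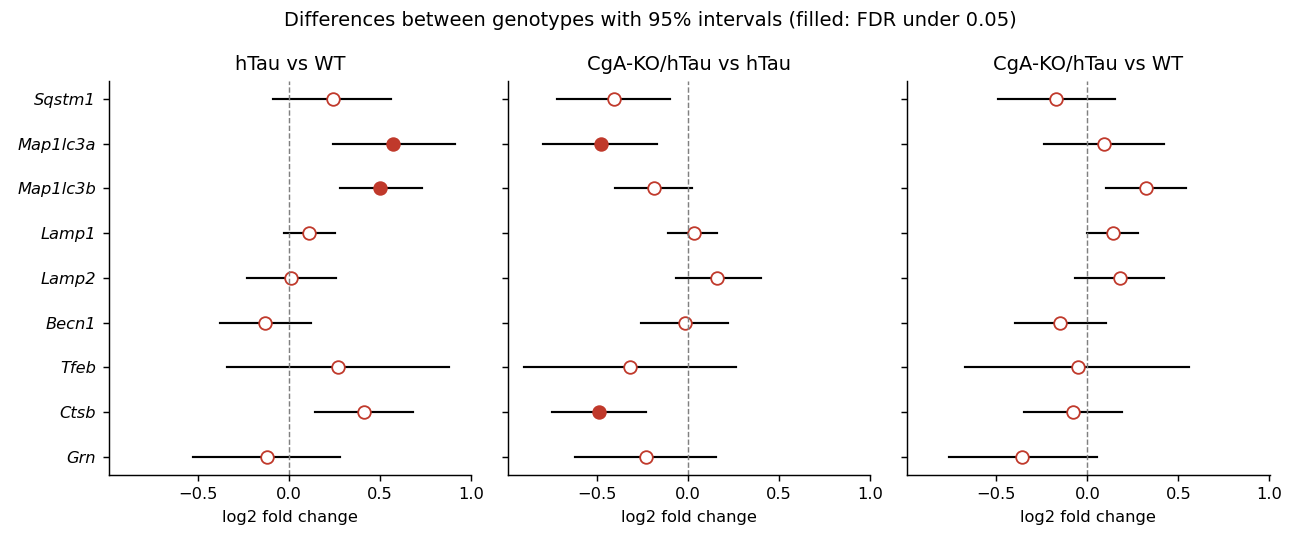
Log2 fold change of the 9 genes (horizontal axis) in the 3 comparisons, each the first genotype minus the second, from the edgeR fit. Lines are 95% intervals and filled points have an FDR under 0.05: Map1lc3a and Map1lc3b in the left panel, Map1lc3a and Ctsb in the middle one, none at the right.

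The second comparison asked what the loss of Chga did to these transcripts in mice with the Tau transgene. Ctsb and Map1lc3a were lower in CgA-KO/hTau than in hTau, each by 1.4-fold (1.41 and 1.40). They were 2 of 9 genes called, against 9.72% of all genes tested (4.22% called lower). The median log2 fold change of the 9 was -0.23, against 0.03 over all genes, and none was called higher. All 9 genes had overlapping libraries here, while 6.63% of all genes had not. Both comparisons use the same 6 hTau libraries, so that opposite signs in the comparisons are not independent of each other.

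Ctsb ran from 376 to 632 CPM in CgA-KO/hTau (median 459), and the libraries of that group split. Replicates 1 to 3 were at 376 to 417 CPM, below every WT library, while replicates 4 to 6 were at 501 to 632 CPM, and replicate 4 lay within the hTau range of 596 to 766 CPM. The Y-linked gene Ddx3y split the same libraries, at 49.8 to 73.6 CPM in replicates 1 to 3 and 0 in replicates 4 to 6. The log2 fold change was -0.49 (standard error 0.12, 95% interval -0.75 to -0.23, FDR = 0.0215). It kept its direction in all 30 settings and its call in 23. Without CgA-KO/hTau replicates 1 and 3 it was -0.36 (FDR = 0.0912), with the oligodendrocyte score as a covariate -0.39 (FDR = 0.0823) and with the striatum score -0.34 (FDR = 0.0786). Leaving out hTau replicate 2 (-0.45, FDR = 0.0548) or CgA-KO/hTau replicate 2 (-0.45, FDR = 0.0559) also ended the call. With the Ddx3y level as a covariate the call remained.

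Map1lc3a was at 93.3, 73.3, 102, 117, 79.6 and 70.7 CPM in CgA-KO/hTau replicates 1 to 6, and both the highest and the lowest of these were among replicates 4 to 6. Replicates 3 and 4 overlapped with the hTau libraries, which began at 97.5 CPM. The log2 fold change was -0.48 (standard error 0.15, 95% interval -0.80 to -0.17, FDR = 0.0482), just inside the threshold. It was -0.60 to -0.42 over the 30 settings and was called in 6 of them. Each library but WT replicate 4, hTau replicate 3 and CgA-KO/hTau replicate 4 ended the call when left out (FDR 0.0519 to 0.116).

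Sqstm1 in CgA-KO/hTau was at 251, 208, 261, 396, 391 and 269 CPM in replicates 1 to 6. Replicates 4 and 5 lay within the hTau range and the other 4 below it, which made this the most variable group for Sqstm1 (26.6% of the mean, against 4.95% in hTau). Both spreads count near-identical libraries as separate. The difference from hTau was -0.41 (standard error 0.15, 95% interval -0.72 to -0.10, FDR = 0.0823) and was called in 4 of 30 settings, among them limma voom (FDR = 0.00814). The libraries of this group with the lowest Sqstm1, replicates 1 to 3, were those with the highest mitochondrial, oligodendrocyte and astrocyte values of the group. They were also the libraries of the group that held Ddx3y. The difference was -0.37 with the oligodendrocyte score as a covariate (FDR = 0.170) and -0.31 with the striatum score (FDR = 0.225), and the part of the mitochondrial share was not tested. In bulk tissue, fewer cells of a type and less RNA per cell cannot be told apart.

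Map1lc3b, called in the first comparison, was at 66.6 to 90.3 CPM in CgA-KO/hTau (median 85.8), between the other genotypes. Its difference from hTau was -0.19 (95% interval -0.40 to 0.02, FDR = 0.231), with no call in any setting. Lamp1 was 282 ± 12.6 CPM (0.03, 95% interval -0.11 to 0.16, FDR = 0.820), the tightest interval among the 9. Lamp2 was 96.4 ± 13.8 CPM (0.16, FDR = 0.345), with replicates 2 and 6 at 111 and 115 CPM above every hTau library. Becn1 was 80.4 ± 16.2 CPM (-0.02, FDR = 0.939), a mean that hid a split, since replicates 1 to 3 held 59.9 to 79.2 CPM and replicates 4 to 6 held 84.5 to 106 CPM. Ddx3y split the same libraries. Grn was 27.95 ± 5.30 CPM (-0.23, FDR = 0.431) and Tfeb 3.17 ± 1.07 CPM (-0.32, 95% interval -0.90 to 0.26, FDR = 0.474).

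The third comparison set CgA-KO/hTau against WT. None of the 9 genes was called by edgeR, against 6.46% of all genes, 1 had an unadjusted p under 0.05, and DESeq2 called 1 and limma voom 0. That gene was Map1lc3b, whose CPM was 1.25-fold higher in CgA-KO/hTau than in WT (log2 fold change 0.32, standard error 0.11, 95% interval 0.10 to 0.54, FDR = 0.0813), and it was called in 6 of 30 settings. For Map1lc3a (0.09, 95% interval -0.24 to 0.42), Sqstm1 (-0.17, -0.49 to 0.15) and Ctsb (-0.08, -0.35 to 0.19) the intervals included 0 and their FDRs were 0.570 to 0.801. The largest negative value was that of Grn (-0.36, 95% interval -0.76 to 0.05, FDR = 0.304). The median of the 9 was -0.05.

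The members also varied with one another over the 17 libraries, which differed in genotype, in tissue markers and in mitochondrial share. Sqstm1 and Ctsb ran together (Pearson r of log2(CPM + 1) 0.88, and 0.83 after subtracting the genotype means), as did Map1lc3a and Map1lc3b (0.83 and 0.79). Map1lc3a and Lamp2 ran opposite (-0.60 and -0.81), as did Becn1 and Tfeb (-0.63 and -0.69). WT replicate 4 and CgA-KO/hTau replicate 6, whose mitochondrial shares of 7.94% and 10.9% were the highest outside CgA-KO/hTau replicates 1 to 3, had the lowest Map1lc3a, Map1lc3b and Tfeb and the highest Lamp2 and Becn1 of their genotypes. CgA-KO/hTau replicate 1, with a higher share (15.3%), ran the other way in most of these genes. It had the highest Map1lc3b (90.3 CPM) and Tfeb (4.73 CPM) and the lowest Lamp2 (81.0 CPM) and Becn1 (59.9 CPM) of its genotype, with Map1lc3a at 93.3 CPM. Replicate 2, with the highest share (18.2%), had neither the lowest nor the highest level of its genotype for any of these genes. The part of RNA quality in these patterns was not tested.

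The closest match of each member was sought among 9876 genes with a mean of at least 10 CPM, and no member was taken as a match. Cox5a, a subunit of cytochrome c oxidase, was the gene whose levels were most like Map1lc3a (r = 0.967, n = 17 libraries). Dgkz, a diacylglycerol kinase, was most like Map1lc3b (r = 0.968). For Sqstm1 it was Spryd3 (0.977), for Ctsb Rassf5 (0.971), for Becn1 Erp44 (0.959), for Lamp2 Hook3 (0.915) and for Lamp1 Dpp8 (0.909). Tfeb (Rnf31, 0.845) and Grn (Dctn5, 0.832), the members with the fewest counts, had the weakest best match. These values are descriptions of the same 17 libraries.

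**Figure D3:**
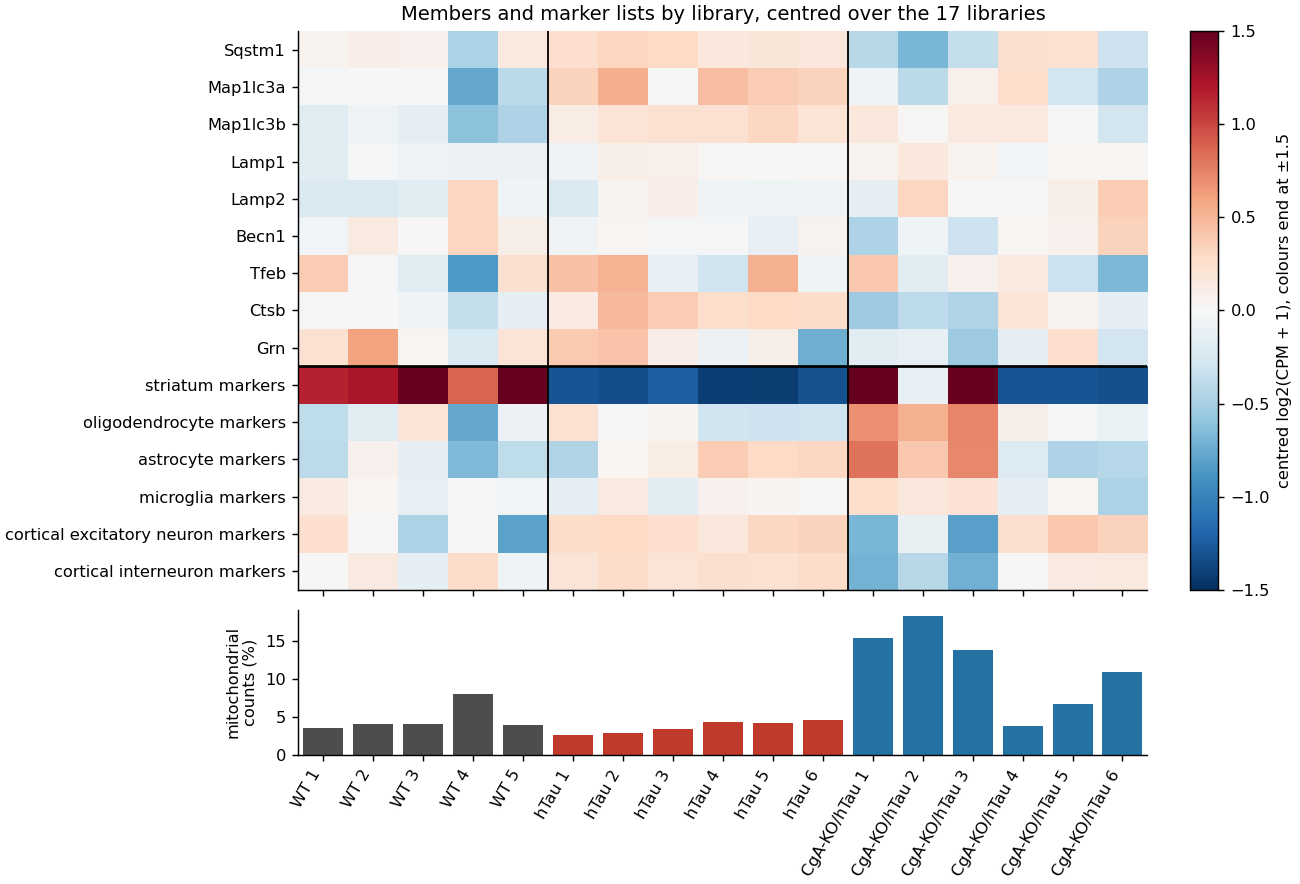
The 9 genes (above the line) and the scores of 6 marker lists (below it) in each library, as log2(CPM + 1) centred over the 17 libraries (colour scale ends at ±1.5), with the percent of counts from mitochondrial genes beneath. Ctsb is lowest in CgA-KO/hTau 1 to 3, the libraries with the highest oligodendrocyte scores (0.53 to 0.73) and mitochondrial shares (13.8% to 18.2%).

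Other cell types were set beside the members because microglia are rich in lysosomal transcripts. None of 10 microglial markers was called by edgeR in hTau against WT (1 at an unadjusted p under 0.05, 0 by DESeq2, 1 by limma voom) or in CgA-KO/hTau against hTau (4, 2 and 3). Their summed level was 220 to 239 CPM in WT, 203 to 252 CPM in hTau and 150.1 to 253 CPM in CgA-KO/hTau, with none at 0 in any library. Of 8 astrocyte markers, 2 were called higher in hTau than in WT and 2 higher in CgA-KO/hTau than in hTau. Of 8 oligodendrocyte markers, 2 were called higher in CgA-KO/hTau than in hTau, and their summed level was 2723 to 3116 CPM in CgA-KO/hTau replicates 1 to 3 and at most 1945 CPM elsewhere. Of 8 markers of cortical excitatory neurons, 1 was called higher in hTau than in WT and 1 lower in CgA-KO/hTau than in hTau, and these markers were above 0 in every library. Of 6 markers of cortical interneurons, 1 was called higher and 1 lower in hTau than in WT, 2 were lower in CgA-KO/hTau than in hTau and 3 lower than in WT. Their summed level was 615 to 652 CPM in CgA-KO/hTau replicates 1 to 3, where Ctsb was lowest, 945 to 972 CPM in replicates 4 to 6, 1066 to 1230 CPM in hTau and 1031 to 1370 CPM in WT. The part of interneuron content in the Ctsb and Sqstm1 differences was not tested. Against WT, 1 microglial, 1 astrocyte and 2 oligodendrocyte markers were called higher in CgA-KO/hTau, and 0 of the excitatory neuron markers were called. Over all genes, edgeR called 5.90% in hTau against WT, 9.72% in CgA-KO/hTau against hTau and 6.46% in CgA-KO/hTau against WT. In the first 2 of these, DESeq2 called 2396 and 3958 of 39993 genes and limma voom 3967 and 5229 of 23062.

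The rest of the pathway was read from a wider list of 161 genes in 13 groups by role, of which 160 were tested. In hTau against WT, 5 of the 160 were called and all 5 were higher, a share of 3.12% against 5.90% of all genes. The median log2 fold change was 0.14, with 117 genes positive. None was called lower by edgeR, where 5 were lower at an unadjusted p under 0.05; DESeq2 called 15 genes, all higher, and limma voom 19 higher and 4 lower. With the striatum score as a covariate edgeR called 17 higher and 12 lower. In CgA-KO/hTau against hTau, 2 genes were called higher and 15 lower, a share of 10.6% against 9.72% of all genes. The median was -0.18, with 115 genes negative. Against WT, CgA-KO/hTau had 3 genes called higher (Vps41, Bnip3 and Bnip3l) and 1 lower (Pik3r4), a share of 2.5% against 6.46% of all genes. With the striatum score as a covariate 17 were higher and 24 lower. Bnip3, a cargo receptor gene, held 131.9 ± 14.5 CPM in CgA-KO/hTau, 115.5 ± 6.72 CPM in hTau and 100.3 ± 11.8 CPM in WT. Bnip3l, another, held 151.3 ± 11.1, 135.7 ± 7.85 and 122.3 ± 7.67 CPM. Their calls against WT held in 25 and 21 of 30 settings. In the single edgeR fit to all 17 libraries the share called was below or near that of all genes in each comparison. The signs leaned up in hTau and down in CgA-KO/hTau. In CgA-KO/hTau against hTau the 15 lower calls among 160 genes stood beside 4.22% of all genes called lower. Other settings without covariates gave other shares there. DESeq2 called 38 of 161 genes (3958 of 39993 over all genes) and limma voom 65 of 160 (5229 of 23062). Averaging the near-identical libraries gave 1 of 160 (156 of 22395).

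The largest call in the wider list of hTau against WT was Atp6v1g2, the neuronal G subunit of the proton pump that acidifies lysosomes and synaptic vesicles. It was at 118 to 214 CPM in WT and 177 to 542 CPM in hTau, a log2 fold change of 1.35 (standard error 0.33, FDR = 0.0205), and at 97.1 to 381 CPM in CgA-KO/hTau, lower than in hTau by -1.18 on the same scale (FDR = 0.0251). The groups overlapped in both comparisons, and its exons overlap those of Nfkbil1 on the other strand, whose reads cannot be kept apart unless the counting used strand. Ctsz (0.41, FDR = 0.0486) and Ctsk (0.65, FDR = 0.0469), which encode further cathepsins, Gusb (0.40, FDR = 0.0427), the gene of beta-glucuronidase, and Laptm4a (0.29, FDR = 0.0281), the gene of a lysosomal membrane protein, were the other 4. Over the 30 settings these 5 calls held in 10 (Ctsz) to 25 (Atp6v1g2), and none held without WT replicate 5. That library stood apart in 6 markers of the choroid plexus, with a summed level of 1098 CPM against 13.6 to 19.3 CPM in the other WT libraries and 4.34 to 6.16 CPM in hTau, and 3 of the 6 were called lower in hTau. Aqp1 and Folr1 of that list were at 0 in WT replicates 1 and 4, and no marker of it was at 0 in hTau. The part of these transcripts in the 5 calls was not tested. The aspartic protease gene Ctsd (0.22, FDR = 0.498) and the cysteine protease gene Ctsl (0.0, FDR = 0.996) were not called.

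The lowest FDR in the wider list was that of Vps41, which encodes a subunit of HOPS, the tether for fusion with lysosomes, and also serves the sorting of cargo into secretory granules. It was at 83.0 to 101 CPM in WT (median 87.2), 98.3 to 116 CPM in hTau (median 101) and 151 to 192 CPM in CgA-KO/hTau (median 162). Every CgA-KO/hTau library was above every library of the other genotypes. The log2 fold change was 0.69 against hTau (standard error 0.08, 95% interval 0.51 to 0.86, FDR = 1.20e-04) and 0.87 against WT (standard error 0.09, FDR = 1.48e-05), and both calls held in all 30 settings, including the fit without CgA-KO/hTau replicates 1 and 3 (0.71, FDR = 3.55e-04). Snap29, the gene of a SNARE of autophagosome fusion, was the other gene called higher than in hTau (0.38, FDR = 0.0451). It was 35.5 ± 5.29 CPM in WT, 27.8 ± 2.47 CPM in hTau and 36.3 ± 5.92 CPM in CgA-KO/hTau.

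The 15 genes called lower in CgA-KO/hTau than in hTau lay in several roles. At the start of the pathway were Ulk1, the initiating kinase (-0.37, FDR = 0.0301), Pik3r4 (-0.45, FDR = 0.0107) and Uvrag (-0.46, FDR = 0.00948), which are partners of Beclin 1 in the class III PI3-kinase complexes, while Becn1 itself was at -0.02 and the catalytic subunit gene Pik3c3 at -0.15 (FDR = 0.352). Pik3r4 was also lower than in WT (-0.48, FDR = 0.00934), with 38.2 ± 5.85 CPM in CgA-KO/hTau, 52.0 ± 3.20 CPM in hTau and 53.4 ± 3.50 CPM in WT. Tollip, a cargo adaptor gene, was at -0.43 (FDR = 0.0244). Mtor and Rragc, which encode the nutrient-sensing kinase and a GTPase that brings it to the lysosome, were at -0.35 (FDR = 0.0408) and -0.29 (FDR = 0.0467). Among the enzymes, Glb1, the gene of lysosomal beta-galactosidase, fell most (-0.69, standard error 0.14, FDR = 0.00795). Its levels were 17.3 ± 4.14 CPM in CgA-KO/hTau (SD, n = 6) and 27.8 ± 1.09 CPM in hTau (SD, n = 6), with no overlap, and its exons overlap those of Tmppe on the same strand. Ppt1, Aga, Neu1 and Manba, further hydrolases, were at -0.46 to -0.33, Epg5, a fusion tether gene, at -0.34 and Atp6v0c, the proton pore of the vacuolar ATPase, at -1.05 (FDR = 0.0259). Over the 30 settings the calls of these 15 held in 6 (Manba) to 29 (Glb1). Without CgA-KO/hTau replicates 1 and 3, the genes of the wider list still called were Glb1 (-0.58, FDR = 0.0497) and Vps41.

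Several central genes gave no call in either comparison with hTau. These were Atg5 (0.05 in hTau against WT and 0.02 in CgA-KO/hTau against hTau) and Atg7 (0.21 and -0.45) of the conjugation machinery, the Atg8 gene Gabarapl1 (0.13 and -0.24), the receptor genes Nbr1 (0.03 and -0.16) and Optn (-0.19 and -0.05), and Rab7 (0.0 and 0.07). Tfe3, the paralog of Tfeb, was at 0.17 and -0.31 (FDR = 0.0759), with every CgA-KO/hTau library below every hTau library. Of the lysosomal membrane genes, Mcoln1 (0.16 and -0.24), Npc1 (0.13 and 0.23), Tmem106b (-0.14 and 0.03) and Cd68 (-0.28 and 0.03) were not called. The pump genes Atp6v0d1 (0.26 and -0.32) and Atp6v1h (0.17 and -0.29), and the enzyme or activator genes Lgmn (0.17 and -0.16) and Psap (0.31 and -0.53, FDR = 0.0512), missed the threshold as well. So did the sorting receptor genes Sort1 (0.14 and -0.37, FDR = 0.0579) and M6pr (-0.26 and 0.15).

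**Figure D4:**
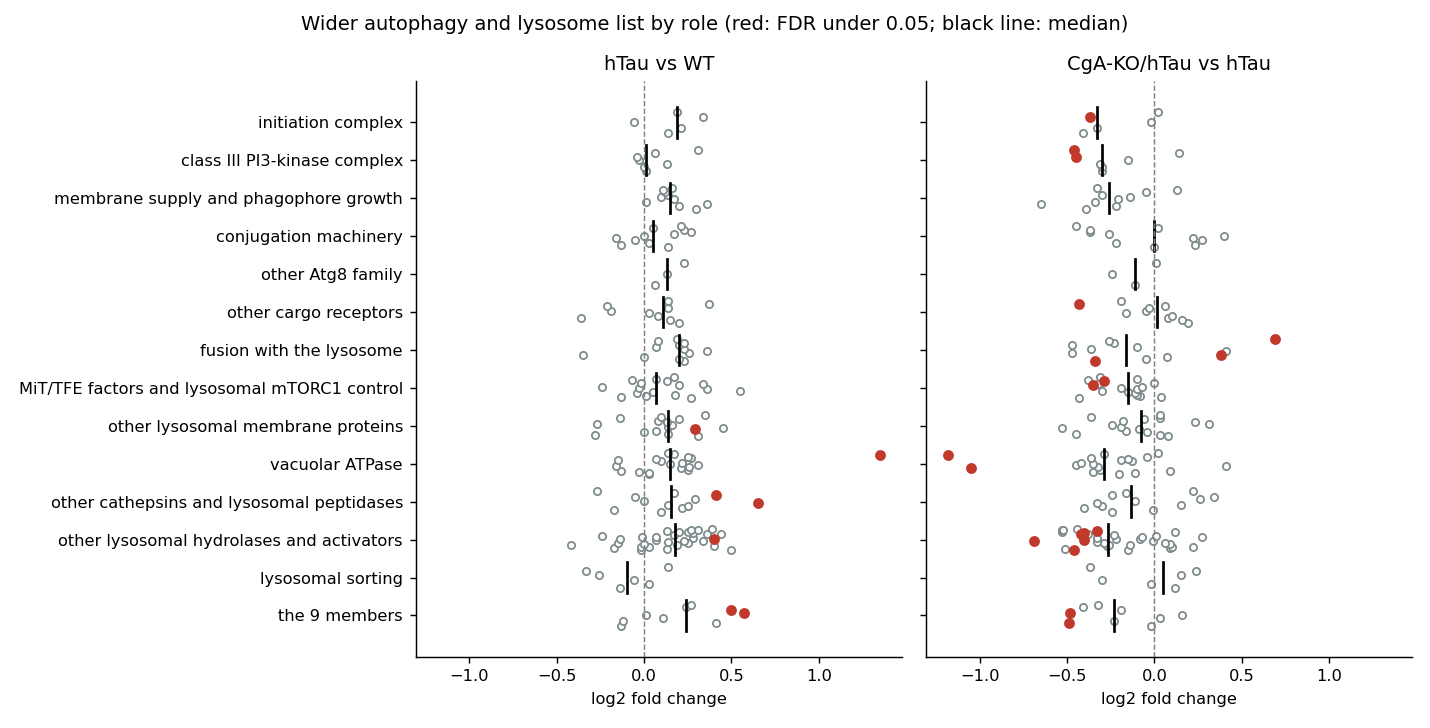
Log2 fold change (horizontal axis) of the genes of the wider list by role and of the 9 members (bottom row), for hTau against WT (left) and CgA-KO/hTau against hTau (right). Each point is a gene, red at an FDR under 0.05, and black lines are medians. The 2 red points far to the left at the right are the pump genes Atp6v1g2 (-1.18) and Atp6v0c (-1.05), and Vps41 (0.69) lies farthest to the right there.

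The calls were also counted by the promoter letters shown above. Of 35 tested genes of the wider list with CACGTG in a window, 0 were called by edgeR in hTau against WT (4 at an unadjusted p under 0.05, 1 by DESeq2 and 4 by limma voom) and 2 in CgA-KO/hTau against hTau, both lower (17 at an unadjusted p under 0.05, 7 by DESeq2 and 16 by limma voom), with medians of 0.14 and -0.26. Of 97 with a window that lacks it, counted with edgeR only, 5 were called in the first comparison, all higher. In the second, 2 were called higher and 10 lower, and the medians were 0.14 and -0.16. Over all genes, edgeR called 5.90% and 9.72% in these comparisons, DESeq2 2396 and 3958 of 39993 and limma voom 3967 and 5229 of 23062. At an unadjusted p under 0.05 by edgeR, 2257 of 23062 were higher and 2568 lower in the first, and 3446 higher and 2974 lower in the second. A difference by motif was not tested. Lamp1, with its 4 copies, was the least variable member, and the 4 genes with the long palindrome were at 0.0 (Cln3), -0.06 (Igf2r), 0.07 (Vps16) and 0.23 (Vps33a) in hTau against WT and at -0.04, -0.30, -0.10 and -0.23 in CgA-KO/hTau against hTau, none of them called.

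Of the 9 genes, Sqstm1, Map1lc3b, Lamp1, Becn1, Ctsb and Grn have exons that overlap a gene on the other strand, among them Fdft1 for Ctsb and Zcchc14 for Map1lc3b, and whether the counting used strand is not given in the sources used here. Map1lc3a, Lamp2 and Tfeb have no such overlap.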

How the data were processed

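Per the labels and the Methods, RNA of prefrontal cortex was made into KAPA mRNA libraries and sequenced paired-end. After trimming (Trimmomatic 0.39), alignment to mm10 (STAR 2.7.10b) and quantification (StringTie 1.3.6), the authors deposited whole-number counts per gene, without normalization (versions from the submitters' processing notes). Low counts peaked at 3 and 6 in all 17 libraries, so about 3 counts stand for 1 fragment. Annotation release and strand setting are not given in the sources used here. Limits from counts cover counting error only.

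The counts were analysed with edgeR 4.0.16 in R 4.3.3: TMM library sizes, filterByExpr by genotype, which left 23062 genes, and a quasi-likelihood fit with 1 mean per genotype and no covariate. The common biological coefficient of variation was 0.316. Alternatives were DESeq2 1.42.0, limma 3.58.1 voom with sample quality weights, other scalings and filters, 2 genotypes per fit, a replicate block, averaged near-identical libraries, striatum and Ddx3y covariates, and each library left out; 2 more were chosen after seeing the data (CgA-KO/hTau replicates 1 and 3 left out, and an oligodendrocyte covariate). The numbers do not pair the samples: deviations of same-numbered libraries correlated at -0.232 to 0.437 over 16 pairs, 2 of them over 0.1. On simulated counts of hTau against WT with 200 genes changed by a log2 fold change of 1, edgeR found 86 (3 false calls, 22971 genes), DESeq2 123 (20 false calls, 39117 genes) and voom 81 (3 false calls, 22971 genes).

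The 9 members, the wider list and the marker lists were chosen with earlier results of these data known. Named from the wider list are 24 central genes and, per comparison and direction, up to 6 called genes with the smallest p; others of the 15 genes called lower were named after their values were seen. Values of some genes of the wider list are left out of the text. Likeness was the highest Pearson r of log2(CPM + 1). Coordinates are GRCm38, and promoters are RefSeq sequences of GRCm38.p6. Summaries used Python 3.11.15 with pandas 2.3.3, and plots matplotlib 3.10.9.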

Additional observations from a re-analysis of the deposited data

Results flagged for a closer look

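Of 27 groups of libraries (9 genes in 3 genotypes), 2 held a library that stood far from the rest, where chance alone gives about 1 in 20 groups. Both were in WT replicate 4, the shallowest library: Sqstm1 at 240.9 CPM, with the next lowest at 347.6 CPM, a gap of 0.83 of the range of the group, and Lamp2 at 111.3 CPM, with the next highest at 84.78 CPM, a gap of 0.754. Without this library the differences of hTau from WT were 0.14 for Sqstm1 and 0.13 for Lamp2 on the log2 scale, neither called.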

How the results depend on the processing

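Each value was recomputed under 30 alternatives, 13 of them other than leaving out 1 library. In hTau against WT, the 2 members called became 1 with no filter or the replicate block and 0 with near-identical libraries averaged, and 1 to 3 with 1 library left out; with striatum they were Map1lc3b and Becn1, not Map1lc3a. The 5 wider-list calls became 15 with DESeq2, 1 with no filter, 10 with at least 10 counts in every library, 8 (7 higher, 1 lower) with only the 2 genotypes, 23 with voom, 0 with the block, 0 averaged, 29 (17 higher, 12 lower) with the striatum covariate and 9 (8 higher, 1 lower) with the oligodendrocyte covariate (0 to 7 with 1 library left out, lowest without WT replicate 5). The 1361 calls over all genes became 2396 (DESeq2), 2275 (2 genotypes), 3967 (voom), 660 (block), 430 (averaged) and 3776 (striatum), and 632 to 1658 with 1 library left out (632 without WT replicate 5, 889 without hTau replicate 2).

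In CgA-KO/hTau against hTau, the 2 members called became 1 with DESeq2's size factors, upper-quartile factors, no filter, at least 10 counts or the Ddx3y covariate, and 0 with the replicate block, averaged libraries, either score as a covariate or replicates 1 and 3 left out (0 to 3 with 1 library left out, 0 without hTau replicate 2 or CgA-KO/hTau replicate 2). The 17 wider-list calls became 38 (DESeq2), 10 (no filter), 29 (2 genotypes), 65 (voom), 3 (block), 1 (averaged), 9 (striatum), 2 (replicates 1 and 3 left out) and 11 (oligodendrocyte), and 4 to 48 with 1 library left out: 47 without WT replicate 4, 48 and 28 without CgA-KO/hTau replicates 4 and 5, and 4 to 9 without any hTau library or CgA-KO/hTau replicates 1, 2 or 3. The 2242 over all genes became 3958 (DESeq2), 5229 (voom), 654 (block), 156 (averaged), 1284 (striatum), 718 (replicates 1 and 3 left out) and 1302 (oligodendrocyte), and 1019 to 3822 with 1 library left out. DESeq2 moved the median of all genes from 0.03 to 0.13 here.

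In CgA-KO/hTau against WT, 0 members became 1 with DESeq2, upper-quartile factors, at least 10 counts or Ddx3y and 2 with striatum (0 to 1 with 1 library left out). The 4 wider-list calls became 14 (DESeq2), 2 (no filter), 7 (at least 10 counts), 1 (2 genotypes), 19 (voom), 2 (block), 2 (averaged) and 41 (striatum, 17 higher and 24 lower), and 3 to 15 with 1 library left out (15 without WT replicate 4). The 1489 over all genes became 2564 (DESeq2), 266 (2 genotypes), 2458 (voom), 614 (block), 577 (averaged) and 4974 (striatum), and 627 to 2099 with 1 library left out. The causes were not tested, except that averaging and leaving out leave fewer samples.

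The signs that turned were of differences that were not called. In hTau against WT these were Sqstm1 (-0.037) and Ctsb (-0.0016) with striatum, and Lamp2 with DESeq2's size factors (-0.00032), upper-quartile factors (-0.0092), at least 10 counts (-0.0091), the replicate block (-0.0062) and striatum (-0.23); leaving out 1 library gave -0.025 to 0.13 for Lamp2 and -0.21 to 0.0084 for Grn. In CgA-KO/hTau against hTau, Lamp1 was -0.027 with no filter, and Becn1 was 0.0073 (DESeq2's size factors), 0.045 (upper-quartile factors, and averaged), 0.036 (at least 10 counts), 0.16 (striatum), 0.12 (replicates 1 and 3 left out), 0.15 (oligodendrocyte) and -0.11 to 0.056 with 1 library left out. In CgA-KO/hTau against WT, Map1lc3a was -0.023 with voom, -0.051 with oligodendrocyte and -0.023 to 0.15 with 1 library left out, Becn1 0.077 with oligodendrocyte, Ctsb 0.055 (replicates 1 and 3 left out) and 0.052 (oligodendrocyte), and Tfeb 0.016 (upper-quartile factors), 0.11 (block), 0.24 (striatum) and -0.21 to 0.10 with 1 library left out.

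Of 689 values over the 9 genes, the called wider-list genes and the counts, 510 kept direction and side of the threshold in settings other than leaving out 1 library, and 686 of 901 with 1 library left out. The replicate numbers do not pair the samples, but in each genotype they follow the split in the Y-linked gene given above. Whether a call lost under the block is a weaker effect was not tested.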
